A study of Homo sapiens with 12 samples.

Results

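The genes described here are 9 members of the FOXO and insulin receptor pathway, namely the forkhead factors FOXO1, FOXO3 and FOXO4, the receptors INSR and IGF1R, the receptor adaptors IRS1 and IRS2, the PI3-kinase inhibitor PIK3IP1 and the repressor BCL6. They were taken by name from a table of gene counts that held 38551 usable genes. All 9 were in the table, and 6 of them had enough reads to be tested, while INSR, IRS1 and BCL6 fell below the filter on low counts.

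When insulin or insulin-like growth factors bind INSR or IGF1R, the adaptors IRS1 and IRS2 are phosphorylated and recruit PI3-kinase, which activates the kinase AKT. AKT phosphorylates FOXO factors, which are then bound by 14-3-3 proteins and kept out of the nucleus. When the signal is low, FOXO factors enter the nucleus and activate genes of cell cycle arrest, autophagy and stress defence, and genes of the pathway itself such as IRS2 and INSR.

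RNA sequencing had been performed on HEL cells, a human JAK2-mutated erythroleukemia line, here with a Cas9 transgene. The groups were cells with KDM4C guide RNA sg2, cells with KDM4C guide RNA sg3 (both labelled as knockout of KDM4C, a histone demethylase) and control cells with a luciferase guide (labelled as wild type), with 4 libraries each and 12 in all. All groups were grown in blasticidin, transduced with lentivirus and kept under puromycin selection (1.5 µg/mL, 11 days), and the column names of the table mark all 12 libraries as vehicle (DMSO). Cells were transduced pools for which no cloning is described, and no source states that the 4 replicates of a group were transduced separately. The p-values therefore describe the spread among these libraries, and that spread may be technical only.

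Total counts ranged from 10031809 to 78966125 per library. KDM4C, the targeted gene, had 40.5, 43.0, 49.8 and 55.1 CPM (counts scaled to a common library size, here with TMM factors) in sg2 libraries 1 to 4, 59.5, 60.8, 63.3 and 63.2 CPM in sg3 libraries 1 to 4, and 67.8, 70.2, 68.1 and 71.4 CPM in control libraries 1 to 4. Each of the 8 knockout libraries lay below the 4 controls, and sg2 lay below sg3. On the first principal component (38.4% of the variance), sg2 libraries 1 and 2 lay at -3.25 and -0.27, apart from sg2 libraries 3 and 4 at 14.3 and 12.4, sg3 at 16.9 to 23.1 and control at -27.6 to -22.8. Values without sg2 libraries 1 and 2 are therefore given beside the results of the tested members, IRS1 and FOXO3B. Of 10 erythroid and megakaryocytic markers, all were expressed, with summed levels of 5546 to 6264 CPM in sg2, 5755 to 6117 CPM in sg3 and 5461 to 6220 CPM in control. The overlapping sums hide shifts of single markers. ITGA2B (1228 to 1379 CPM in sg2, 1327 to 1501 in sg3, 1083 to 1107 in control), ALAS2, GATA1 and NFE2 lay above control without overlap. TAL1 lay below it (409 to 424 CPM in sg2, 383 to 396 in sg3, 455 to 481 in control). The other markers overlapped control with sg2 or with both guides. Summed levels of 4 T cell markers stayed at or below 0.301 CPM and those of 4 epithelial markers at or below 0.521 CPM. The sum of 4 B cell markers, nearly all of it CD79A, was 3.16 to 3.75 CPM in sg2, 3.01 to 4.57 CPM in sg3 and 2.33 to 2.88 CPM in control, without overlap of either guide with control, while the B cell marker MS4A1 was at 0 in all 8 knockout libraries. The sum of 4 fibroblast markers was 1.20 to 1.25 CPM in sg2, 0.954 to 1.30 CPM in sg3 and 0.826 to 0.991 CPM in control. The part of these markers in the results was not tested.

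Each gene was tested with edgeR's quasi-likelihood test and Benjamini-Hochberg adjustment over all 13996 genes tested, and was called at an adjusted p below 0.05. In the average of both guides against control, 5 of the 6 tested genes (FOXO1, FOXO3, IGF1R, IRS2 and PIK3IP1) were called higher and 0 lower, against 43.9% of all tested genes called, 21.6% higher and 22.3% lower. With sg2, 3 were called higher (FOXO3, IRS2 and PIK3IP1), against 14.5% of all genes called higher and 28.3% called in either direction. With sg3, 4 were called higher (FOXO1, FOXO3, IRS2 and PIK3IP1), against 21.9% higher and 44.1% in either direction. The median log2 fold change of the 6 genes was 0.34 for the average, 0.23 for sg2 and 0.39 for sg3, while the median over all tested genes was -0.0046 for the average. The comparisons of the guides share the same 4 control libraries. In bulk RNA, a change in the number of cells that express a gene and a change in RNA per cell cannot be told apart.

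**Figure D1:**
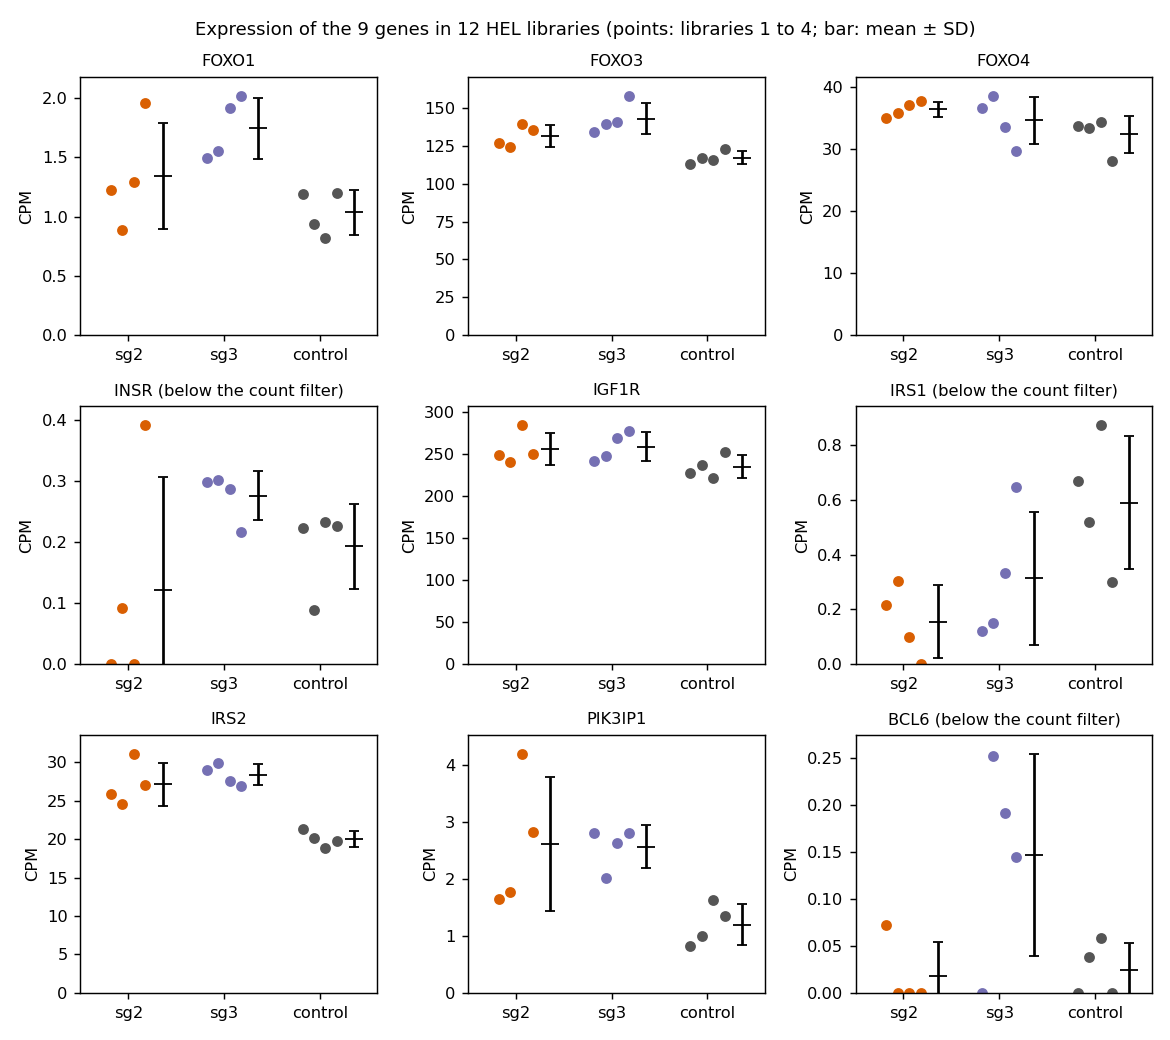
Expression in CPM (y axis, linear) of the 9 genes in sg2, sg3 and control cells; points are libraries 1 to 4 from left to right and the bar is the mean ± SD. FOXO3, IRS2 and PIK3IP1 were higher in all 8 knockout libraries than in the 4 control libraries, and FOXO1 in 7 of the 8.

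Compared per length of exon sequence (CPM per kilobase), IGF1R had the highest level, at 19.1 ± 1.44 in sg2, 19.3 ± 1.29 in sg3 and 17.5 ± 1.02 in control (SD, n = 4 each). FOXO4 and FOXO3 followed, with 9.34 ± 0.327 and 8.998 ± 0.493 CPM per kilobase in sg2, 8.88 ± 0.986 and 9.80 ± 0.705 in sg3, and 8.31 ± 0.751 and 8.03 ± 0.286 in control. These 2 genes were within their spread of each other, and their order differed between groups. IRS2 came next at 3.33 in sg2, 3.48 in sg3 and 2.45 in control, then PIK3IP1 at 1.05 in sg2, 1.04 in sg3 and 0.484 in control. FOXO1 stood at 0.126, 0.164 and 0.0976 CPM per kilobase in sg2, sg3 and control. IRS1, INSR and BCL6 were at or below 0.0677 CPM per kilobase in every group, so IGF1R was the receptor and IRS2 the adaptor that these cells expressed at a level that could be measured well.

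Upstream sequence is shown for IRS2, PIK3IP1 and FOXO3, the 3 genes whose 8 knockout libraries all lay above the 4 controls. Each stretch is the 250 bases before a RefSeq transcript start in GRCh38.p14, printed 5′ to 3′ on the strand of the gene, and capitals mark the single motif match found in them. FOXO3 and PIK3IP1 have further RefSeq starts, and the window shown is that of the start furthest upstream. IRS2 is at chr13:109786584-109786833 on the minus strand, PIK3IP1 at chr22:31292535-31292784 on the minus strand, and FOXO3 at chr6:108559575-108559824 on the plus strand.
IRS2: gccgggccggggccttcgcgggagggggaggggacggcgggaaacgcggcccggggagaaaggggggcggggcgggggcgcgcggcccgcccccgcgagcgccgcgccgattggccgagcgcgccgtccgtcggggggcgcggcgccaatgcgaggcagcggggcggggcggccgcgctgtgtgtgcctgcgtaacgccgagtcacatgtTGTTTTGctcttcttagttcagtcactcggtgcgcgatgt
PIK3IP1: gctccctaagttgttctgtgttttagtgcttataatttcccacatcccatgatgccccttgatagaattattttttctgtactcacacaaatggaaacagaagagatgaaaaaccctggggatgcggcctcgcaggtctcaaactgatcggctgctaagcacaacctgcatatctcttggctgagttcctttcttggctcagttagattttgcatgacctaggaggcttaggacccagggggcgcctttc
FOXO3: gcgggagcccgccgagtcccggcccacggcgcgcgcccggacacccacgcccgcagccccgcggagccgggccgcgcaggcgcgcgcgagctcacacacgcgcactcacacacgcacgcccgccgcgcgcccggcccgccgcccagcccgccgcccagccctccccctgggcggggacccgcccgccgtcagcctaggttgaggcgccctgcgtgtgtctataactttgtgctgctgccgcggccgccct
The 14 upstream windows of the 9 genes were searched on both strands for the FOXO core motif (GTAAACA, which reads as TGTTTAC on the opposite strand) and for the insulin response motif that FOXO factors also bind (CAAAACA, which reads as TGTTTTG on the opposite strand). The FOXO core was in none of the 14, and in 2.98% of 35116 windows of all genes. The insulin response motif was in 1, that of IRS2, which carries TGTTTTG 40 bases before the start, and in 4.30% of all windows. The windows shown for IRS2 and FOXO3 held 76.4% and 80.4% G and C, that for PIK3IP1 46.8%, and the median of all windows was 58.0%. The other windows of FOXO3 held 78.4%, 74.4% and 47.6%, and the other window of PIK3IP1 50.4%. A match of letters in a window is a description of the sequence and shows no binding.

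Among the FOXO factors, FOXO3 was the best measured and rose with both guides. FOXO3 (chromosome 6, 108559825 to 108684774, plus strand, hg38) encodes a factor known from mouse studies for its roles in blood stem cells and erythroid precursors. It had 127, 124, 139 and 136 CPM in sg2 libraries 1 to 4, 134, 139, 141 and 158 CPM in sg3 libraries, and 113, 117, 116 and 123 CPM in control libraries. All 8 knockout libraries lay above the 4 controls, while the 2 guides overlapped. On the log2 scale the change was 0.23 ± 0.04 (SE) in the average (adjusted p = 0.00068, edgeR), 0.16 ± 0.05 for sg2 (adjusted p = 0.0257) and 0.29 ± 0.05 for sg3 (adjusted p = 0.00027). The difference of sg3 from sg2 was 0.13 (95% interval 0.02 to 0.23, adjusted p = 0.277). Without sg2 libraries 1 and 2, the change was 0.26 for the average and 0.23 for sg2. The sg2 call was lost without sg2 library 3 or 4 or control library 1, 2 or 3 (adjusted p 0.0579 to 0.0779).

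FOXO3B, a near-identical copy of FOXO3 on chromosome 17 (18667629 to 18682314, minus strand), fell with both guides. FOXO3B had 16.2, 15.7, 18.04 and 14.5 CPM in sg2 libraries, 16.7, 15.5, 15.9 and 19.4 CPM in sg3 libraries, and 20.7, 20.6, 19.6 and 21.3 CPM in control libraries. Every knockout library was below every control library, and the log2 fold change of the average was -0.33 ± 0.07 (adjusted p = 0.0008, edgeR), with -0.36 for sg2 and -0.29 for sg3. Without sg2 libraries 1 and 2 it was -0.32 (adjusted p = 0.00437) for the average and -0.35 (adjusted p = 0.0280) for sg2. FOXO3B took 11.0% of the counts of both genes in sg2 (exact 95% interval 10.4 to 11.6%), 10.5% in sg3 (9.94 to 11.1%) and 15.0% in control (14.5 to 15.5%). Exact intervals of shares cover counting error only and not the spread between libraries, over which the share was 9.65 to 11.5% in sg2, 10.0 to 11.1% in sg3 and 14.5 to 15.5% in control. FOXO3B also shares 232 bases of exon sequence with ZNF286B on the same strand, which had 36 to 412 counts per library against 181 to 1626 for FOXO3B. How the counting divided reads among these genes was not tested. With the counts of both genes summed, an alternative chosen after seeing the data, the change was 0.16 for the average (adjusted p = 0.00732), 0.10 for sg2 (adjusted p = 0.1501) and 0.22 for sg3 (adjusted p = 0.00221).

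FOXO1, the factor best known from insulin action in liver, was expressed at a low level (chromosome 13, 40555667 to 40666641, minus strand). It had 1.22, 0.886, 1.30 and 1.96 CPM in sg2 libraries, 1.49, 1.56, 1.91 and 2.01 CPM in sg3 libraries, and 1.19, 0.938, 0.816 and 1.20 CPM in control libraries, from 13 to 74 counts per library. All 4 sg3 libraries were above the controls, whereas sg2 overlapped them. On the log2 scale the change was 0.54 ± 0.21 (SE) in the average (adjusted p = 0.0431, edgeR), 0.31 ± 0.25 for sg2 (adjusted p = 0.384) and 0.77 ± 0.23 for sg3 (adjusted p = 0.0126). The 2 guides differed by 0.46 (95% interval -0.05 to 0.98), which did not pass the test (adjusted p = 0.387). The call for the average was lost in 10 of 21 alternative settings, among them no filter (adjusted p = 0.0699) and leaving out sg2 library 1, 3 or 4, sg3 library 3 or 4, or control library 2 or 3 (adjusted p 0.0554 to 0.167). The sg3 call was lost without control library 2 (adjusted p = 0.0564). Without sg2 libraries 1 and 2 the change was 0.74 for the average and 0.70 for sg2 (adjusted p = 0.0820).

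FOXO4, on the X chromosome (71095851 to 71103534, plus strand), had 34.9, 35.8, 37.1 and 37.8 CPM in sg2 libraries, 36.6, 38.5, 33.6 and 29.7 CPM in sg3 libraries, and 33.8, 33.4, 34.3 and 28.0 CPM in control libraries. The sg2 libraries were all above the controls, the sg3 libraries overlapped them, and the lowest library of sg3 and of control was the fourth. The log2 fold change did not pass the test for the average (0.12 ± 0.06, adjusted p = 0.126, edgeR), for sg2 (0.16 ± 0.07, adjusted p = 0.127) or for sg3 (0.09 ± 0.07, adjusted p = 0.331). The intervals of these differences reached 0.26, 0.31 and 0.25. Without sg3 library 4 the average passed (0.15, adjusted p = 0.0320), and without sg2 libraries 1 and 2 it was 0.15 and did not (adjusted p = 0.117). Over all runs with 1 library left out, the average ranged from 0.075 to 0.153 (adjusted p 0.0320 to 0.346, edgeR). FOXO4 shares up to 286 bases of exon sequence with CXorf65 on the opposite strand, which had 5 to 38 counts per library against 372 to 2632 for FOXO4.

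**Figure D2:**
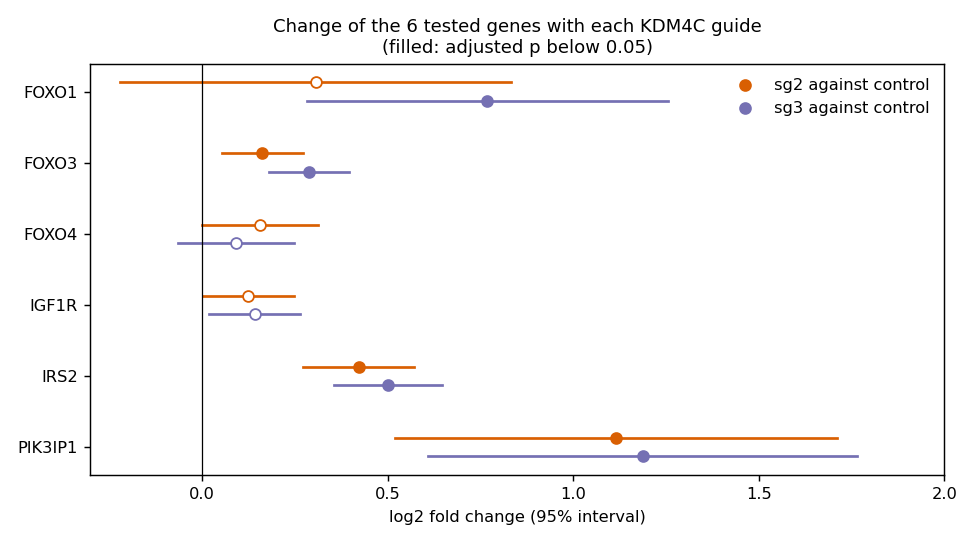
Log2 fold change (x axis) with 95% interval of the 6 tested genes for sg2 and sg3, each against control; filled points had an adjusted p below 0.05. FOXO3, IRS2 and PIK3IP1 were filled with both guides, and the FOXO1 interval spanned 0 with sg2.

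Of the receptors, IGF1R was abundant and INSR nearly silent. IGF1R, the receptor for insulin-like growth factors (chromosome 15, 98648539 to 98964530, plus strand), had 249.1, 241, 284 and 249.9 CPM in sg2 libraries, 241, 247, 269.6 and 277 CPM in sg3 libraries, and 227, 237, 222 and 253 CPM in control libraries. Of the 8 knockout libraries, 3 were above all controls, and the groups overlapped with both guides. The average was called higher by a small amount, at 0.13 ± 0.05 on the log2 scale (adjusted p = 0.0404, edgeR), and neither guide alone passed (sg2 0.12, adjusted p = 0.120, and sg3 0.14, adjusted p = 0.055). The call for the average was lost without sg2 library 3, sg3 library 3 or 4, or control library 1, 2 or 3 (adjusted p 0.0575 to 0.139). With sg3, IGF1R was called in 11 of 22 alternative settings, among them without sg2 library 3, sg3 library 1 or 2, or control library 4 (adjusted p 0.0225 to 0.0423). Without sg2 libraries 1 and 2 the change was 0.17 for the average and 0.19 for sg2 (adjusted p = 0.0546). The antisense gene IRAIN shares 1137 bases of exon sequence with IGF1R and had 7 to 92 counts per library, against 2853 to 18670 for IGF1R.

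INSR, the insulin receptor itself (chromosome 19, 7112257 to 7294414, minus strand), had 0, 3, 0 and 5 counts in sg2 libraries, 5, 6, 6 and 3 counts in sg3 libraries, and 6, 7, 4 and 3 counts in control libraries. A difference between the groups was not detectable at this depth. Fitted without the filter on low counts, its log2 fold change for the average was 0.12 ± 0.58 (adjusted p = 0.979, edgeR).

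Of the adaptors, IRS2 (chromosome 13, 109752695 to 109786583, minus strand), whose gene FOXO factors activate in mouse liver, rose with both guides. It had 25.95, 24.6, 31.1 and 27.1 CPM in sg2 libraries, 29.0, 30.0, 27.5 and 27.0 CPM in sg3 libraries, and 21.3, 20.1, 18.8 and 19.8 CPM in control libraries. The lowest knockout library was above the highest control library. The log2 change was 0.46 ± 0.06 in the average (adjusted p = 1.69e-05, edgeR), 0.42 ± 0.07 for sg2 (adjusted p = 0.000366) and 0.50 ± 0.07 for sg3 (adjusted p = 2.76e-05). The difference of sg3 from sg2 was 0.08 (95% interval -0.07 to 0.23, adjusted p = 0.618). All 21 alternative settings of the average kept the call, with values of 0.43 to 0.52, and without sg2 libraries 1 and 2 the sg2 change was 0.53.

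IRS1 (chromosome 2, 226731317 to 226798790, minus strand), the other main adaptor, was scarce. It had 3, 10, 1 and 0 counts in sg2 libraries, 2, 3, 7 and 9 counts in sg3 libraries, and 18, 41, 15 and 4 counts in control libraries. Scaled to library size, 5 of the 8 knockout libraries were below all controls, and sg3 libraries 3 and 4 and sg2 library 2 overlapped them. IRS1 took 0.761% of the counts of IRS1 and IRS2 in sg2 (14 of 1839, exact 95% interval 0.417 to 1.27%), 1.02% in sg3 (21 of 2056, 0.633 to 1.56%) and 2.76% in control (78 of 2823, 2.19 to 3.44%). Library by library the share was 0 to 1.23% in sg2, 0.409 to 2.34% in sg3 and 1.50 to 4.44% in control, so sg3 library 4 overlapped the controls. Without the filter on low counts, the log2 fold change of IRS1 was -1.29 ± 0.39 for the average (adjusted p = 0.00896, edgeR), -1.59 ± 0.50 for sg2 (adjusted p = 0.0197) and -0.99 ± 0.45 for sg3 (adjusted p = 0.116). With the filter kept and libraries left out, it was -2.28 for the average and -3.58 for sg2 without sg2 libraries 1 and 2 (adjusted p = 0.0106 and 0.0279), and sg2 did not pass without sg2 library 1, 3 or 4 or control library 2 (adjusted p 0.0587 to 0.0928). These values rest on few reads and do not enter the counts of called genes above.

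**Figure D3:**
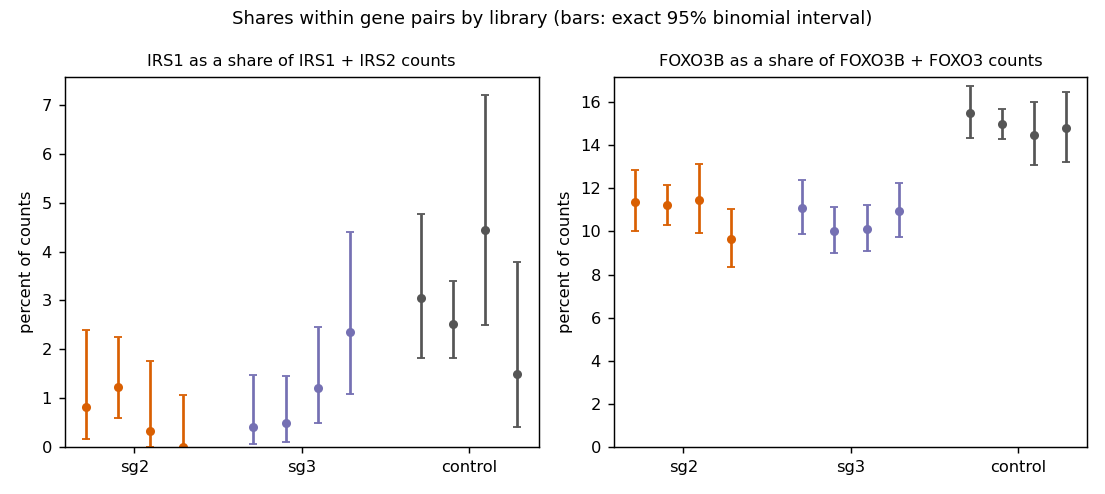
Share of counts in percent (y axis) that IRS1 took of IRS1 and IRS2 (left) and FOXO3B of FOXO3B and FOXO3 (right), by library, with exact 95% binomial intervals. The FOXO3B share was below 12% in all 8 knockout libraries and above 14% in all 4 control libraries, whereas the IRS1 shares of sg3 and control overlapped.

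PIK3IP1, a membrane protein that binds the catalytic subunit of PI3-kinase and lowers its activity, showed the largest change of the 6 tested genes (chromosome 22, 31281593 to 31292534, minus strand). It had 1.65, 1.77, 4.19 and 2.82 CPM in sg2 libraries, 2.80, 2.01, 2.63 and 2.81 CPM in sg3 libraries, and 0.819, 0.989, 1.63 and 1.35 CPM in control libraries. All knockout libraries were above all controls, with sg2 library 1 next to control library 3. The log2 change was 1.15 ± 0.24 in the average (adjusted p = 0.00113, edgeR), 1.12 ± 0.28 for sg2 (adjusted p = 0.0075) and 1.19 ± 0.27 for sg3 (adjusted p = 0.00222). The guides differed by 0.07 (95% interval -0.49 to 0.63, adjusted p = 0.929). Every one of the 21 alternative settings kept the call for the average, with values of 1.02 to 1.41, and without sg2 libraries 1 and 2 the sg2 change was 1.63. The counts behind these values were 18 to 78 per library.

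BCL6, a transcriptional repressor whose gene FOXO factors activate in lymphoid and leukemic cells (chromosome 3, 187721377 to 187745472, minus strand), was close to absent. It had 1, 0, 0 and 0 counts in sg2 libraries, 0, 5, 4 and 2 counts in sg3 libraries, and 0, 3, 1 and 0 counts in control libraries. No change was detectable at this depth. Without the filter on low counts, the adjusted p was 0.786 for the average and 0.0806 for sg3 (edgeR).

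Set directly against each other, none of the 6 tested genes passed the test for a difference of sg3 from sg2. The count of 0 held with edgeR, DESeq2 and limma-voom, against 1 call (0.00714%) among all genes with edgeR. At an unadjusted p below 0.05, edgeR gave 1 of the 6 genes (FOXO3), DESeq2 1 and limma-voom 2, against 2098, 1854 and 2297 of all 13996 genes with these tools, so the count of members was near the background. FOXO3, IRS2 and PIK3IP1, the genes with all 8 knockout libraries above the controls, were 3 of the 6 tested genes, against 11.95% of all tested genes in that direction and 11.3% in the other.

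For FOXO1 and PIK3IP1, called with a change of at least 0.5, the genes of most similar pattern over the 12 libraries were looked for. The search covered 10717 of the tested genes, those above a minimum average level. Similarity was the root mean square difference of log2 CPM centred on the control mean. The nearest to FOXO1 were SLC9A3-AS1 (0.18) and TBC1D10A (0.18), against a median of 0.55 over the genes searched. The nearest to PIK3IP1 were ZNF467 (0.28) and ORAI3 (0.29), against a median of 0.95. FOXO1 had 13 to 74 and PIK3IP1 18 to 78 counts per library, so counting noise is part of their patterns. Shared regulation was not tested.

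Other genes of the pathway were described by lists that run from the ligands to the FOXO targets. These lists were chosen with earlier results of these data known, so setting their shares against all genes is descriptive only. The counts over all lists include KLF2, which passed the filter on low counts through knockout libraries alone. They also include CCND1, which had 3 of 4 control libraries above the filter and passed only with knockout libraries. Of 114 listed genes, 98 were tested, and 34 were called higher, 19 lower and 45 not called in the average, against 21.6% of all tested genes higher and 22.3% lower. With sg2, 27 were called higher and 10 lower (14.5% and 13.9% of all genes), and with sg3, 31 higher and 20 lower (21.9% and 22.2% of all genes). The share of listed genes called lower was thus near that of all genes. No listed gene was called between sg3 and sg2 by edgeR.

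**Figure D4:**
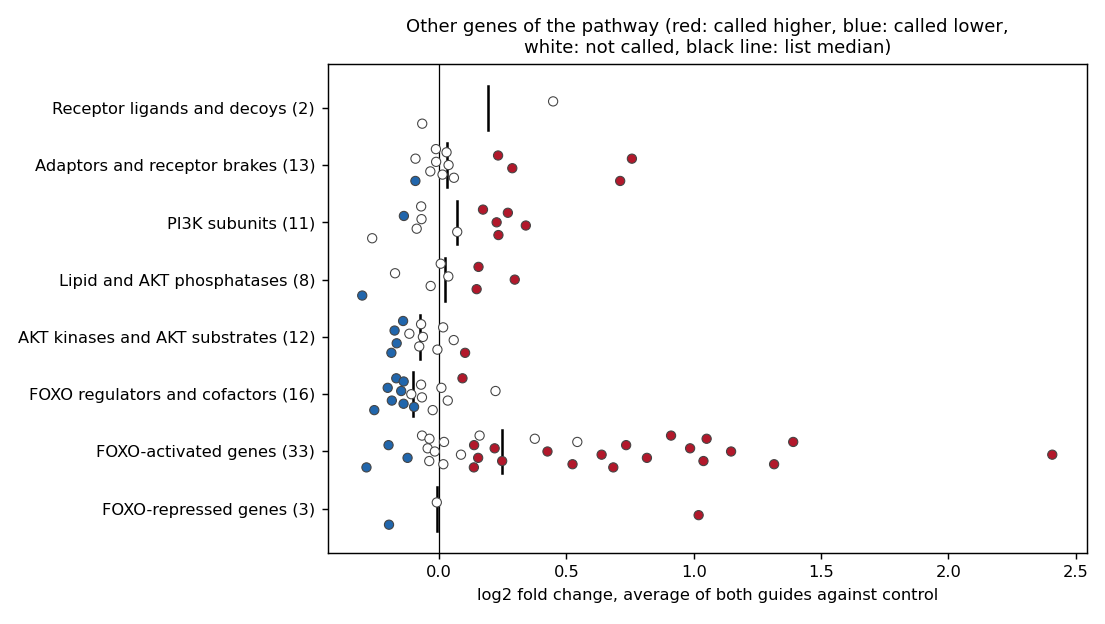
Log2 fold change of the average of both guides against control (x axis) for the tested genes of each list (rows, with the number tested); red points were called higher, blue points lower and white points not called, and the black line is the median. The FOXO-activated genes had 19 of 33 called higher and a median of 0.25. The FOXO regulators had 8 of 16 called lower and a median of -0.10. Of all tested genes, 21.6% were called higher and 22.3% lower. The 19 include KLF2, which passed the filter on low counts through knockout libraries alone.

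Upstream of PI3-kinase, neither of the 2 tested receptor-level genes was called. IGF2R, which clears IGF2 from the cell surface, changed by -0.07 on the log2 scale (adjusted p = 0.259, edgeR) and did not pass the test. Among adaptors and receptor brakes, 4 of 13 tested genes were called higher and 1 lower (median 0.03), so 38.5% were called against 43.9% of all genes. SOCS3 and SOCS1, feedback inhibitors of cytokine and insulin receptor signalling, rose by 0.76 ± 0.05 (adjusted p = 6.63e-08) and 0.71 ± 0.14 (adjusted p = 0.00067), and the docking protein GAB2 rose by 0.29 ± 0.04 (adjusted p = 6.07e-05). SOCS3 had 151 to 188 CPM in sg2, 184 to 199.97 CPM in sg3 and 102 to 109.9 CPM in control, so both guides stood above control without overlap. GRB2, the adaptor with the highest level per kilobase, had a change of 0.04 (adjusted p = 0.349). The remaining calls of this list, named after their values were seen, were the ubiquitin ligase CBL (0.23) and the receptor inhibitor GRB10 (-0.09).

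Of 11 tested PI3-kinase subunits, 5 were called higher and 1 lower (median 0.07), or 45.5% and 9.09% against 21.6% and 22.3% of all genes. The leukocyte catalytic subunit PIK3CD rose by 0.34 ± 0.06 (adjusted p = 0.000246, edgeR), the regulatory subunit PIK3R6 by 0.27 ± 0.07 (adjusted p = 0.00322) and the catalytic subunit PIK3CB by 0.23 ± 0.03 (adjusted p = 2.82e-05). The catalytic subunits PIK3CA (0.23) and PIK3CG (0.17) and the regulatory subunit PIK3R2 (-0.14), named after their values were seen, made up the rest of the calls. PIK3R6 was called with sg3 (0.44, adjusted p = 0.000203) and not with sg2 (0.11, adjusted p = 0.331), and all sg3 libraries were above all sg2 libraries, although the difference of sg3 from sg2 did not pass the test (0.33, adjusted p = 0.119). Of 8 phosphatases that remove the PI3-kinase product or act on AKT, 3 were called higher and 1 lower (median 0.02), and the 4 calls of 8 were near the 43.9% of all genes. The AKT phosphatases went in opposite directions, with PHLPP1 higher by 0.30 ± 0.06 (adjusted p = 0.000988) and PHLPP2 lower (-0.30 ± 0.07, adjusted p = 0.00322). INPPL1, a lipid phosphatase, rose by 0.16 ± 0.04 (adjusted p = 0.00358), as did INPP4B by 0.15, which was named after its value was seen.

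Of 12 AKT kinases and substrates, 1 was called higher and 4 lower (median -0.07), and the 41.7% called was near the 43.9% of all genes. TSC1, part of a complex that restrains mTOR (-0.19 ± 0.05, adjusted p = 0.00632, edgeR), the glycogen synthase kinase GSK3A (-0.17 ± 0.04, adjusted p = 0.000999) and the mTOR complex inhibitor AKT1S1 (-0.17 ± 0.05, adjusted p = 0.00783) fell, although AKT1S1 did not pass without control library 1 (adjusted p = 0.0557). The other calls, named after their values were seen, were the AKT-activating kinase PDPK1 (-0.14) and the Rab regulator TBC1D1 (0.10). The count of this list was not stable, with 2 or 3 calls in place of 5 without sg2 library 4 (3), sg3 library 2 (3), control library 1 (2), control library 2 (3), control library 4 (3) or sg2 libraries 1 and 2 together (3). Of 16 FOXO regulators and cofactors, 1 was called higher and 8 lower (median -0.10), against 22.3% of all genes lower. With sg2, 4 of the 16 were called lower (13.9% of all genes), and with sg3, 9 (22.2% of all genes). SKP2, a ubiquitin ligase subunit that targets FOXO1, fell by 0.25 (SE 0.04, adjusted p = 9.54e-05), the deacetylase SIRT1 by 0.20 (SE 0.06, adjusted p = 0.00771) and the methyltransferase PRMT1 by 0.19 (SE 0.03, adjusted p = 0.000114). SIRT1 was called with sg3 (-0.33, adjusted p = 0.000679) and not with sg2 (-0.07, adjusted p = 0.440), and the difference of sg3 from sg2 did not pass the test (-0.26, adjusted p = 0.144). The single gene called higher, named after its value was seen, was the kinase STK4 (0.09). YWHAQ, the 14-3-3 gene with the highest level per kilobase, had a change of 0.01 (adjusted p = 0.842), whose sign turned in some settings. INPP5D, FOXO6 and YWHAE are also listed on alternate sequences of the assembly, so their counts are uncertain.

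Genes known to be activated by FOXO factors showed the largest changes of the lists. Of 33 tested, 19 were called higher and 3 lower in the average, with a median log2 fold change of 0.25 against -0.0046 over all tested genes, of which 21.6% were called higher and 22.3% lower. With sg2, 16 were higher and 1 lower (14.5% and 13.9% of all genes), and with sg3, 18 higher and 3 lower (21.9% and 22.2% of all genes). Each of these counts of genes called higher includes KLF2, and the list was chosen with earlier results of these data known. KLF2, a transcription factor of quiescence, had 0.575 to 2.11 CPM in sg2, 1.10 to 1.96 CPM in sg3 and 0.225 to 0.291 CPM in control, a fitted log2 fold change of 2.41 ± 0.34. It rested on 8 to 30, 16 to 39 and 3 to 18 counts per library in sg2, sg3 and control, and KLF2 was the single gene of the 33 that passed the filter on low counts (0.584 CPM) through knockout libraries alone, so its call is no support for a difference. BNIP3, a mitophagy receptor that hypoxia also induces, had 93.2 to 165 CPM in sg2, 159 to 170.3 CPM in sg3 and 49.5 to 59.3 CPM in control (1.39 ± 0.13, adjusted p = 6.16e-07, edgeR). TXNIP, an inhibitor of thioredoxin and of glucose uptake, had 195 to 315 CPM in sg2, 304 to 314 CPM in sg3 and 106 to 115 CPM in control (1.32 ± 0.10, adjusted p = 9.61e-08). In all 3 genes sg2 libraries 1 and 2 were the lowest knockout libraries, and without them the changes were 2.72, 1.57 and 1.44. EIF4EBP1, a repressor of translation and the listed gene with the highest level per kilobase, had a change of -0.04 (adjusted p = 0.453).

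The 3 FOXO-activated genes called lower, named after their values were seen, were SOD2 (-0.28 ± 0.04), ATG14 (-0.20 ± 0.06) and PRDX3 (-0.12 ± 0.04), of which SOD2 and PRDX3 encode mitochondrial antioxidant enzymes and ATG14 an autophagy factor. Of 3 tested genes known to be repressed by FOXO factors, the cell cycle gene CCND1 had a fitted log2 fold change of 1.02 ± 0.20. With 3 of its 4 control libraries above the filter on low counts, CCND1 passed only with the knockout libraries. Its call is therefore no support for a difference. ID1, an inhibitor of differentiation, fell by 0.20 (SE 0.04, adjusted p = 0.000392, edgeR). Many of the listed targets also answer to other transcription factors, and their changes were not tested for dependence on FOXO.

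**Figure D5:**
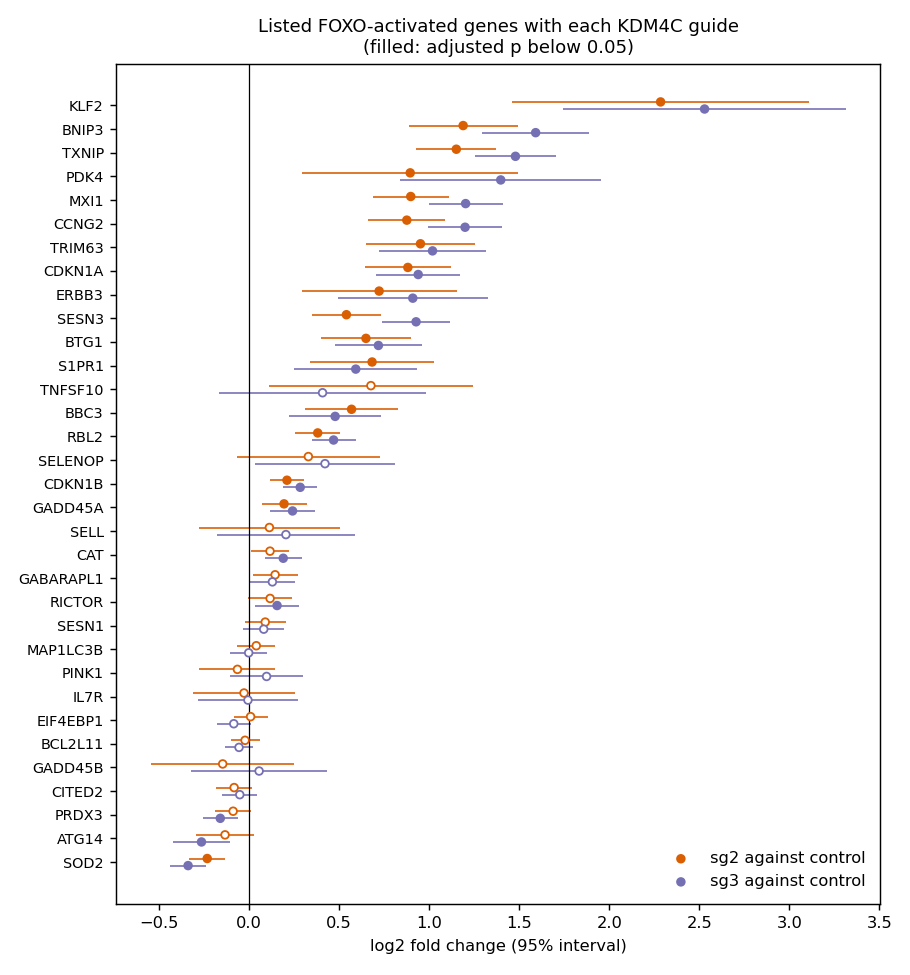
Log2 fold change (x axis) with 95% interval of the 33 tested FOXO-activated genes (rows) for sg2 and sg3, each against control; filled points had an adjusted p below 0.05. KLF2, BNIP3 and TXNIP stood highest and SOD2 lowest with both guides. KLF2 passed the filter on low counts through knockout libraries alone, so its filled points are no support for a difference.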

How the data were processed

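Members and gene lists were chosen with earlier results of these data known. The authors used Trimmomatic 0.39 for trimming of the paired-end reads, STAR 2.7.4a for alignment (hg38) and featureCounts 2.0.1 for counting, according to the labels and methods. The stated options name no strand, so reads of overlapping genes on opposite strands may not have been told apart. The deposited file gives each gene's raw count without normalization. Long cells had broken 20 of its 38571 lines, and the 6 genes concerned were left out.

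Groups and replicate numbers came from the sample titles. The counts were fitted with edgeR 4.0.16 under R 4.3.3 (filterByExpr, minimum count 10, minimum total 15, TMM scaling, a mean per group over all 12 libraries, glmQLFit and glmQLFTest). The script was tested on simulated data. CPM used TMM library sizes, the SE was derived from the log2 change and its F statistic, and the common biological coefficient of variation was 6.24%. Alternatives used DESeq2 1.42.0, limma 3.58.1 (voom), other scalings and filters, a replicate block, and left-out libraries. All 9 members were named, and from each list the 3 called genes of largest change and the gene of highest level per kilobase, except where stated. Reduced chi-squares of replicate counts were 1.71 to 12.5, above counting noise, so no library was taken for a repeat deposit of another. Promoter sequences are from RefSeq (GRCh38.p14). Positions in the table overlapped that annotation for 99.97% of 34681 genes compared. Of the markers, 1 of 4 for B cells (CD79A), 1 of 4 for fibroblasts (COL1A1) and 0 of 4 for epithelial cells were tested.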

Additional observations from a re-analysis of the deposited data

Results flagged for a closer look

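The FOXO4 level of control library 4, 28.0 CPM, stood apart from the other 3 control libraries at 33.4 to 34.3 CPM. Its gap to the nearest of them was 0.846 of the range of the group. This was above the 95% critical value of Dixon's test for 4 samples, which chance exceeds in about 5% of groups. The check was run on each of the 6 tested genes in each of the 3 groups, so 1 such value can arise by chance.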

How the results depend on the processing

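The calls of IRS2 and PIK3IP1 held with both guides and in the average under every alternative run, and that of FOXO3 in the average and with sg3. When 1 library was left out, 3 to 6 members were called in the average (5 as reported), with 3 without control replicate 3. The number was 2 to 4 for sg2 (3 as reported), 3 to 5 for sg3 (4 as reported) and 0 throughout for sg3 against sg2. The highest counts, 6 for the average and 4 for sg2, included IRS1, which was called lower and is not among the 6 tested genes. Called higher were 3 to 5 members in the average, with 3 without sg2 replicate 3, sg3 replicate 3 or control replicate 2 or 3. For sg2, 2 to 3 members were called higher. IRS1 passed the filter in 10 of the alternatives with fewer libraries and was called lower in the average there. It did not pass without sg3 replicate 4, control replicate 1 or control replicate 3, where its levels were highest (0.648, 0.670 and 0.874 CPM). The 10 runs that tested IRS1 thus all kept these libraries, and their calls are no further support for a fall. The change of YWHAQ in the average turned sign, with -0.0057 to 0.025 when 1 library was left out and -0.0018 without sg2 replicates 1 and 2. For sg3 against sg2, IGF1R ranged from -0.012 to 0.070 and PIK3IP1 from -0.13 to 0.34 when 1 library was left out, and without sg2 replicates 1 and 2 the values were -0.044 for IGF1R, -0.028 for IRS2 and -0.44 for PIK3IP1. The cause was not tested. Over all genes, calls for sg3 against sg2 numbered 1 as reported, 367 with no filter, 111 with DESeq2, 18 with limma-voom, 25 with the replicate block, 0 with only the groups compared, 0 without sg2 replicates 1 and 2, and 0 to 201 when 1 library was left out. Other scalings moved the median of all genes by at most 0.025.

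No source states whether same-numbered libraries were handled together. Correlations of their deviations from group means lay between -0.17 and 0.18. Pairs of unlike number were not computed beside them, so these values cannot decide whether same-numbered libraries shared a batch. With the replicate number as a block, 4 members were called in the average (FOXO1 at 0.48, adjusted p = 0.0549, edgeR), 3 for sg2, 5 for sg3 (IGF1R added) and 0 for sg3 against sg2, and calls over all genes numbered 5956, 3817, 6012 and 25. Restricting the fit to the groups compared gave no separate value for the average, which uses all groups. Depth limited INSR, IRS1 and BCL6, at 0 to 41 counts per library.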
